A study of Homo sapiens with 6 samples.

Results

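Serine, glycine and proline synthesis was followed through 9 genes in HK2 cells, and the genes were taken by name from 41497 named gene entries, 1 entry on a primary chromosome for each. The 9 genes fall into 3 steps: serine synthesis (PHGDH, PSAT1 and PSPH), the conversion of serine to glycine with the mitochondrial folate reactions behind it (SHMT1, SHMT2, MTHFD2 and ALDH1L2), and proline synthesis from glutamate (ALDH18A1 and PYCR1). HK2 is an immortalised line of human proximal tubule epithelial cells. RNA was sequenced from 3 control libraries, of untreated wild-type HK2 cells, and from 3 TGF-β1 libraries, of wild-type HK2 cells given TGF-β1, all at 24 h. Serum was part of the maintenance medium of both groups, per the labels, while the study's methods describe treatment with TGF-β in medium free of serum. Those methods name a dose for such treatments in general, and the labels give none for these libraries. The labels also do not say whether the libraries of a group came from separate cultures, so the p-values measure the spread between libraries, which may be technical.

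Cells make serine from 3-phosphoglycerate, an intermediate of glycolysis, and the proximal tubule is known for this activity. Serine hydroxymethyltransferase then splits serine into glycine and a folate-bound carbon unit, which the mitochondrial folate enzymes pass on as formate or burn to carbon dioxide. Proline is made in mitochondria from glutamate. Glycine and proline are the most frequent residues of the collagen triple helix, and TGF-β1 is known to raise collagen synthesis.

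After TGF-β1, the called changes were 2 falls in serine synthesis, 1 small rise among 4 serine-to-glycine genes and 2 rises in proline synthesis. In serine synthesis PSAT1 and PSPH fell while PHGDH did not pass the test. In the serine-to-glycine step MTHFD2 rose slightly and SHMT1, SHMT2 and ALDH1L2 did not pass the test. In proline synthesis both ALDH18A1 and PYCR1 rose. In all, 5 of the 9 genes were called at an adjusted p under 0.05 by edgeR's quasi-likelihood test with Benjamini-Hochberg adjustment over 14860 tested entries, where 44.3% of all entries were called. Of the 9 genes, 3 were called higher, against 22.2% of all entries, and 2 lower, against 22.1%. The control and TGF-β1 libraries did not overlap for 5 of the 9 genes, against 55.6% of all entries (27.9% with TGF-β1 above and 27.7% with TGF-β1 below). The share called among the 9 genes was therefore near that of all entries. The median log2 fold change was 0.07 over the 9 genes and 0.01 over all entries tested, and the median size among called entries was 0.47, above that of PSAT1 (0.40) and PYCR1 (0.34) and just below that of PSPH (0.48).

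The scaling between libraries set the sign of small changes. The levels are counts-per-million values (CPM) scaled by TMM, the trimmed mean of M values, which assumes that most genes do not change. When libraries were scaled by their totals alone, all entries shifted by -0.11 in the median log2 fold change. Of the 3 rises, PYCR1 stayed called with total counts only (log2 fold change 0.23), whereas MTHFD2 (0.07, adjusted p = 0.329) and ALDH18A1 (0.05, adjusted p = 0.446) were not called by edgeR, and both falls stayed called.

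Total counts per library ran from 21938622 to 26906067. The treatment check held in all 3 TGF-β1 libraries: COL1A1, the alpha 1 chain of type I collagen, rose by 3.30 on the log2 scale, and 6 of 6 listed TGF-β targets were called higher. TGF-β1 replicate 1 stood apart from the other TGF-β1 libraries, at 20 to 21.8 times the variance expected of counting alone (chi-square per degree of freedom) against 4.74 to 6.8 for the other pairs, and the 5 called genes stayed called without it. The cells carried the kidney epithelial markers PAX8, KRT8 and KRT18, while LRP2, a defining gene of the differentiated proximal tubule, had no count in any library and CUBN stayed under 1 CPM. Of 10 kidney epithelial markers, 8 were tested, and 4 were called higher, KRT8 and KRT18 among them, and 4 lower, PAX8 among them. Of the markers of other cells, PTPRC and CD3E of leukocytes and PECAM1, VWF, KDR and TEK of endothelium stayed under 0.3 CPM, as did PDGFRA and DCN of fibroblasts. Other markers of these lists were low but fell: CD14 of monocytes stood at 1.92 to 2.98 CPM in control and 0.573 to 0.910 CPM after TGF-β1, and THY1 of fibroblasts at 0.767 to 1.02 and 0.165 to 0.334 CPM. CDH5 of endothelium, also called lower, stood at 0.654 to 1.285 CPM in control and had no count after TGF-β1. PDGFRB, a receptor of fibroblasts and pericytes, stood at 0.443 to 0.613 CPM in control and 5.40 to 6.25 CPM after TGF-β1 (log2 fold change 3.38). LUM, a fibroblast marker, stood at 58.3 to 67.6 CPM in control and 50.1 to 52.1 CPM after TGF-β1, and CD68, a lysosomal marker of macrophages, at 91.9 to 101.9 CPM and 60.9 to 84.5 CPM. The summed fibroblast list spanned 59.8 to 69.2 CPM in control and 56.8 to 58.1 CPM after TGF-β1, the leukocyte list 94.99 to 103.8 CPM and 61.5 to 85.3 CPM, and the endothelial list 0.94 to 1.68 CPM and 0 to 0.10 CPM, and their part in the results was not tested. In bulk RNA a change in the share of cells that express a gene cannot be told apart from a change per cell.

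The RefSeq sequence (GRCh38.p14) of the 250 bases before the RefSeq start was at hand for 5 of the 9 genes. Those windows end just outside the deposited entries of PHGDH and PSAT1, but reach 10 bases into that of SHMT1, 24 bases into that of MTHFD2 and 190 bases into that of ALDH18A1. Sequence is shown for PHGDH and PSAT1, which catalyse successive steps and of which PSAT1 was called lower and PHGDH was not called. The search covered both strands for CCAAT, the box bound by NF-Y, TGATGNAA, the core of the composite element bound by ATF4, CACGTG, the E-box bound by MYC and USF factors, and GTCTAGAC, the palindromic SMAD-binding sequence. Capitals mark the matches on lines that run 5′ to 3′ on the strand of the gene: PHGDH at chr1:119711684-119711933 (plus strand) and PSAT1 at chr9:78296875-78297124 (plus strand).
PHGDH: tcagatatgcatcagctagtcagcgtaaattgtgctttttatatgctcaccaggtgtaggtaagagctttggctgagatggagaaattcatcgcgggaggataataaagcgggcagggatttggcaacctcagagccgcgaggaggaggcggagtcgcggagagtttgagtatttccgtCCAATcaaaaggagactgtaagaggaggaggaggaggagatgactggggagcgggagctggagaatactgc
PSAT1: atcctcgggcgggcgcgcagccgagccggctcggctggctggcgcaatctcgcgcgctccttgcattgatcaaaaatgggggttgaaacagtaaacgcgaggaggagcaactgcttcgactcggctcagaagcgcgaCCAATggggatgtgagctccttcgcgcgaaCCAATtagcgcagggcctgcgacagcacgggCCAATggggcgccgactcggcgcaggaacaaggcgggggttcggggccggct
PSAT1 held 3 CCAAT boxes, at 113, 83 and 52 bases before the start, and PHGDH held 1, at 71 bases. CCAAT was found for 4 of the 5 genes with a sequence (PHGDH, PSAT1, SHMT1 and MTHFD2), and in 32.0% of 35116 RefSeq promoter windows of that length. The ALDH18A1 window held 1 CACGTG, at 136 bases before the RefSeq start and so within the deposited entry, and 6.34% of all windows held that motif. TGATGNAA, in 3.14% of all windows, and GTCTAGAC, in 0.182%, were found in none of the 5 windows. These are letter matches within 250 bases and not binding sites.

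PHGDH (phosphoglycerate dehydrogenase, chr1:119711934-119744218, plus strand) commits 3-phosphoglycerate to serine synthesis. It stood at 163.5, 177.4 and 152.5 CPM in the control libraries and at 174, 155.9 and 155.3 CPM in the TGF-β1 libraries. The groups overlapped over nearly their whole range. The log2 fold change was -0.02 (SE 0.07, edgeR adjusted p = 0.805), with a 95% interval of the fold from 0.895 to 1.08. The uncharacterised entry LOC105378936, inside PHGDH on the same strand, took 75 to 159 counts per library, against 3252 to 4531 for PHGDH. PHGDH stayed uncalled under each of 9 other settings and 6 fits without 1 library. The sign of its log2 fold change turned when control replicate 2 (0.035) or TGF-β1 replicate 3 (0.0016) was left out.

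PSAT1 (phosphoserine aminotransferase, chr9:78297125-78330093, plus strand) takes an amino group from glutamate to make phosphoserine. Its level was 51.3, 56.5 and 51.9 CPM in control and 43.5, 40.7 and 36.9 CPM after TGF-β1. Every TGF-β1 library lay below every control library. The fall was 24.2% (log2 fold change -0.40, SE 0.07, edgeR adjusted p = 0.00115), and the 95% interval of the fold ran from 0.687 to 0.837.

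PSPH (phosphoserine phosphatase, chr7:56010487-56051604, minus strand) releases serine in the last step. It measured 47.9, 46.9 and 44.3 CPM in control and 36.0, 31.8 and 31.8 CPM after TGF-β1. The groups were separated by a gap wider than the range of either group. This was the largest called change among the 9 genes, a fall of 28.4% (log2 fold change -0.48, SE 0.07, edgeR adjusted p = 0.000213). PSAT1 and PSPH were called lower in all 9 other settings and in all 6 fits without 1 library, with log2 fold changes from -0.51 to -0.34 for PSAT1 and from -0.59 to -0.45 for PSPH.

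**Figure D1:**
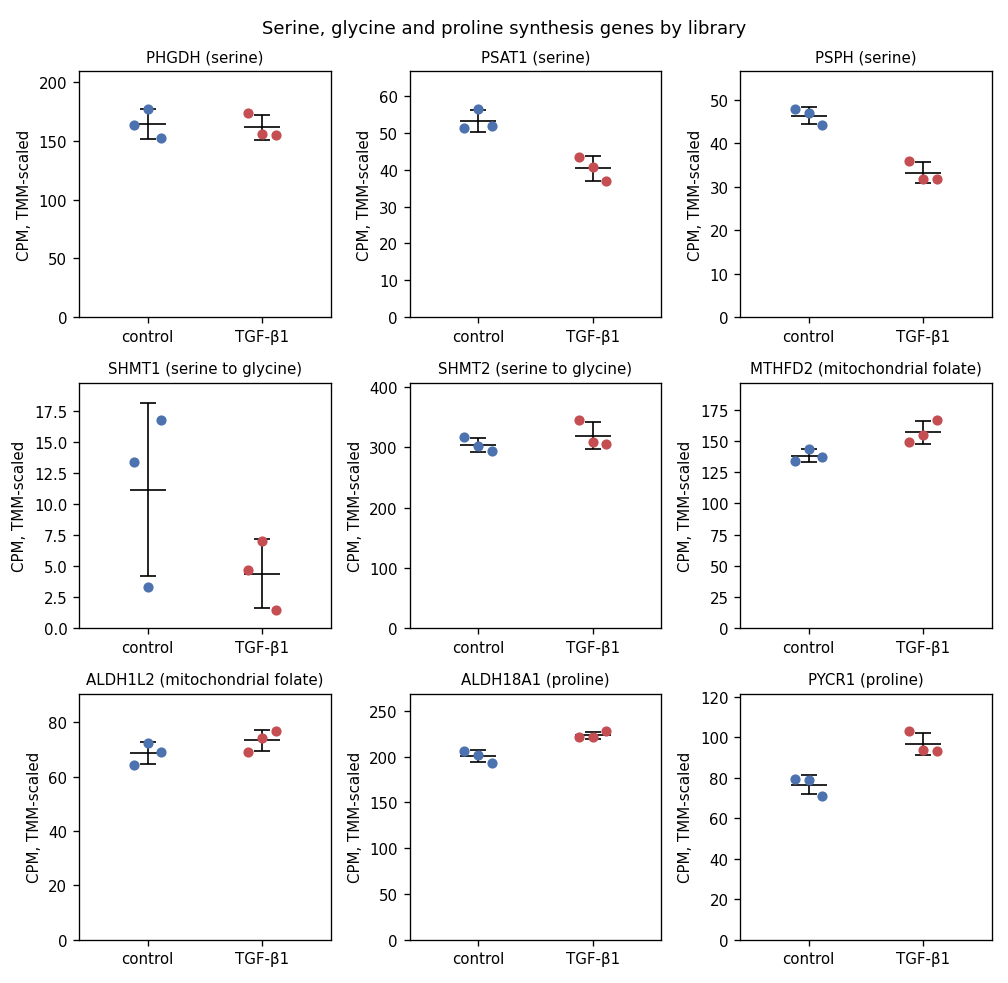
Points give the TMM-scaled CPM (vertical axes, from 0) of each gene in each of the 3 control and 3 TGF-β1 libraries, with lines at the mean and bars of 1 SD. PSAT1 and PSPH sit lower in all 3 TGF-β1 libraries, PYCR1, ALDH18A1 and MTHFD2 sit higher in all 3, and SHMT1 ranges from 1.48 to 16.8 CPM.

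SHMT2 (mitochondrial serine hydroxymethyltransferase, chr12:57229685-57234935, plus strand) had the highest level of the 9 genes on every scale. It stood at 316.1, 301.8 and 293.2 CPM in control and 344.9, 308.1 and 305.1 CPM after TGF-β1. The TGF-β1 replicate 1 library was the highest and the other TGF-β1 libraries lay within the control range. The log2 fold change was 0.07 (SE 0.06, edgeR adjusted p = 0.37), with a 95% interval of the fold from 0.967 to 1.14. NDUFA4L2, which overlaps its end on the opposite strand, took 11 to 24 counts, against 6391 to 8981 for SHMT2. Without TGF-β1 replicate 1 the log2 fold change was 0.003, and with total counts only it was -0.03.

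SHMT1, the cytosolic form (chr17:18327873-18363560, minus strand), was erratic. It measured 13.4, 3.35 and 16.8 CPM in control and 4.69, 7.03 and 1.48 CPM after TGF-β1. These values came from 302, 82 and 394 counts in the control libraries, against 122, 170 and 31 counts after TGF-β1, and libraries of the same group differed by more than the groups did. The log2 fold change of -1.33 had an SE of 0.86 (edgeR adjusted p = 0.288), and the 95% interval of the fold ran from 0.123 to 1.28. Its value is uncertain also because an entry of the same name on another scaffold took 5 to 12 counts per library, and because SMCR8, which overlaps it on the opposite strand, took 25 to 45 counts in libraries whose strandedness is not given in the sources used here.

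MTHFD2 (mitochondrial methylenetetrahydrofolate dehydrogenase and cyclohydrolase, chr2:74198591-74217565, plus strand) oxidises the carbon unit that SHMT2 releases. It stood at 133.5, 143.8 and 137.3 CPM in control and 149.2, 154.3 and 166.6 CPM after TGF-β1. The groups did not overlap, by a gap of a few CPM. SLC4A5, on the opposite strand at its end, took 9 to 22 counts, against 3012 to 3885 for MTHFD2. The rise was 13.4% (log2 fold change 0.18, SE 0.06, edgeR adjusted p = 0.0268). The call was lost in edgeR without control replicate 1 (edgeR adjusted p = 0.106), without control replicate 3 (adjusted p = 0.0808) or with TGF-β1 replicate 3 left out (adjusted p = 0.127).

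ALDH1L2 (mitochondrial 10-formyltetrahydrofolate dehydrogenase, chr12:105019784-105084609, minus strand) turns the carbon unit into carbon dioxide and yields NADPH. It measured 64.3, 72.4 and 69.3 CPM in control and 69.3, 74.2 and 76.7 CPM after TGF-β1, and the groups overlapped. The log2 fold change was 0.10 (SE 0.06, edgeR adjusted p = 0.256), with a 95% interval of the fold from 0.979 to 1.17, and it was -0.01 with total counts only.

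ALDH18A1 (delta-1-pyrroline-5-carboxylate synthase, chr10:95605938-95656901, minus strand) reduces glutamate in the first step towards proline. It stood at 206.1, 202 and 193.6 CPM in control and 221.1, 221.5 and 227.9 CPM after TGF-β1. Every TGF-β1 library lay above every control library. The rise was 11.4% (log2 fold change 0.16, SE 0.05, edgeR adjusted p = 0.0262). The edgeR call was lost without control replicate 2 (edgeR adjusted p = 0.0845), without control replicate 3 (adjusted p = 0.1), without TGF-β1 replicate 2 (adjusted p = 0.0593) and without TGF-β1 replicate 3 (adjusted p = 0.103).

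PYCR1 (mitochondrial pyrroline-5-carboxylate reductase, chr17:81932391-81937300, minus strand) makes proline in the last step. Its level was 79.6, 79.1 and 71.1 CPM in control and 103, 93.5 and 93.5 CPM after TGF-β1. Every TGF-β1 library was higher than every control library. The rise was 26.2% (log2 fold change 0.34, SE 0.07, edgeR adjusted p = 0.00172), with a 95% interval of the fold from 1.15 to 1.38. The call held in all 9 other settings and all 6 fits without 1 library, with log2 fold changes from 0.23 to 0.37.

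**Figure D2:**
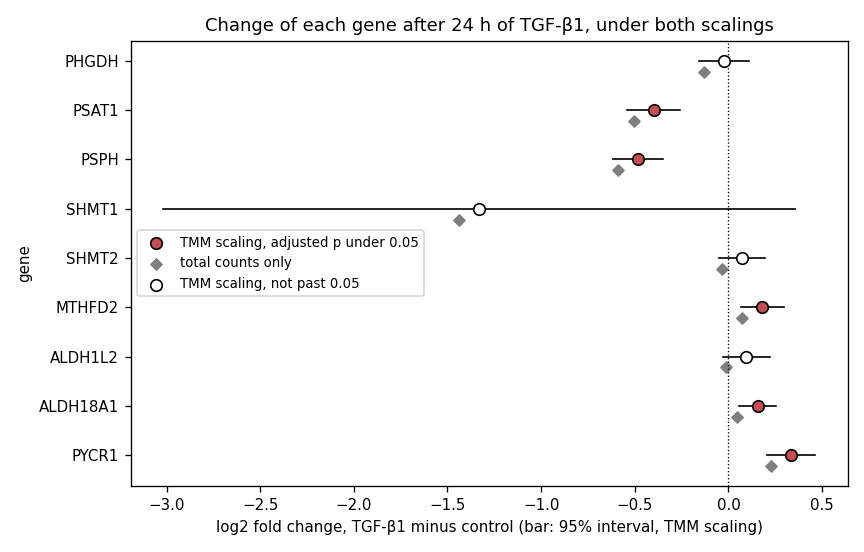
The horizontal axis gives the log2 fold change of TGF-β1 minus control, circles the values under TMM scaling with bars of the 95% interval, filled where the edgeR adjusted p was under 0.05, and diamonds the values with total counts only. PSAT1, PSPH and PYCR1 keep their side of 0 by a margin under both scalings, whereas ALDH18A1 at 0.16 and MTHFD2 at 0.18 move to 0.05 and 0.07.

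Levels of different genes were compared per length, as transcripts-per-million values (TPM). In control, SHMT2 was the most abundant (376.8 ± 7.82, SD, n = 3), followed by ALDH18A1 (168.7 ± 2.34), PYCR1 (112.3 ± 5.20), MTHFD2 (101.6 ± 4.66), PSAT1 (80.3 ± 4.54), PHGDH (71.6 ± 4.90), PSPH (45.9 ± 1.04), ALDH1L2 (27.9 ± 1.97) and SHMT1 (13.9 ± 8.76). Of the neighbours in this order, only PSAT1 and PHGDH overlapped between control libraries, at 76.1 to 85.1 and 67.7 to 77.1 TPM. After TGF-β1 PHGDH, at 64.8 TPM, stood above PSAT1, at 56.0 TPM. The place of PHGDH rests on its length: the deposited table gives it 7645 bases, while the GENCODE transcript used here has 2585 bases. The deposited TPM of the 9 genes alone were therefore rescaled to GENCODE lengths, a choice made after seeing the data. The totals were not formed anew, so the rescaled values are not TPM. On that scale PHGDH stood at 211.7 in control and second behind SHMT2, overlapping ALDH18A1, and the order of the other genes in control did not change. After TGF-β1, on the rescaled values, PYCR1 at 220.0 came next to SHMT2, ahead of ALDH18A1 at 204.0 and PHGDH at 191.6.

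The TPM scale also moved the smaller changes. PSAT1 (76.1 to 85.1 TPM against 51.8 to 58.6 TPM), PSPH (44.7 to 46.7 against 29.3 to 31.8 TPM) and PYCR1 (106.3 to 115.8 against 127.6 to 134.8 TPM) remained separated between control and TGF-β1. ALDH18A1 overlapped, at 166 to 170.5 TPM in control and 166 to 178.5 TPM after TGF-β1. MTHFD2 overlapped as well, at 96.5 to 105.6 against 97.9 to 114 TPM. PHGDH lay just lower after TGF-β1 on this scale, with its highest TGF-β1 library at 67.6 and its lowest control library at 67.7 TPM. Summed TPM over the serine synthesis genes went from 197.8 ± 9.30 to 151.1 ± 6.97 (SD, n = 3), over the serine-to-glycine and folate genes from 520.2 ± 6.36 to 503.5 ± 6.46, and over the proline genes from 281.0 ± 7.48 to 303.8 ± 2.72. As summed CPM, serine synthesis overlapped: control libraries held 248.7 to 280.8, TGF-β1 libraries 224.0 to 253.5. The serine-to-glycine and folate sum was higher with TGF-β1 on CPM, at 543.6 to 568.0 against 516.5 to 527.2 for control. The direction of that step therefore depended on the scale. Only the proline sum rose without overlap on both scales (CPM of 315.0 to 324.1 with TGF-β1, control 264.7 to 285.7). The TPM sums use the deposited lengths, that of PHGDH included. All these sums are a description and were not tested.

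**Figure D3:**
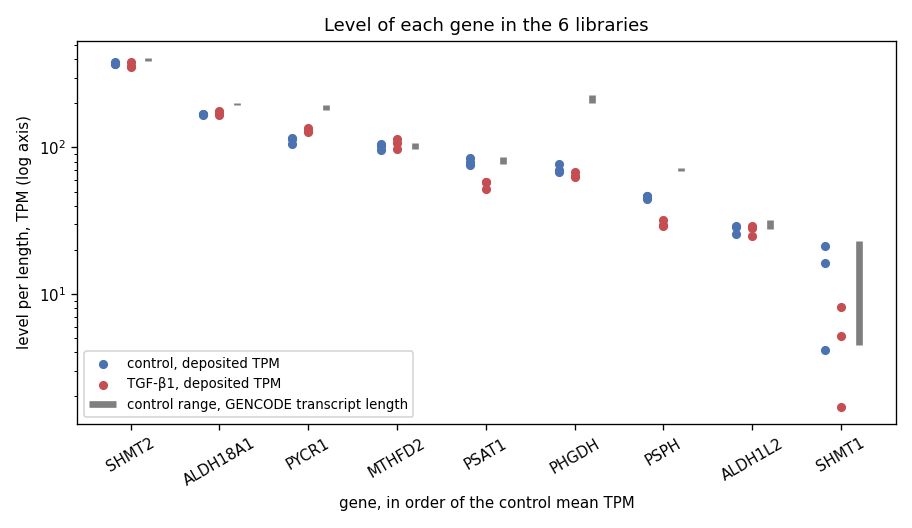
The vertical log axis gives the level per length, with points for the deposited TPM of each of the 6 libraries. Grey bars give the range of the control libraries when these TPM are rescaled from the deposited to the GENCODE transcript length. SHMT2 leads at 376.8 TPM in control, and PHGDH moves from 71.6 TPM to a rescaled value of 211.7 with the other length.

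Ratios between genes within a library need no scaling between libraries, and were taken on FPKM, fragments counted relative to gene length and library size. PSAT1 relative to PHGDH was 1.09, 1.10 and 1.179 in the control libraries, against 0.867, 0.904 and 0.824 after TGF-β1. Every TGF-β1 ratio was lower, and the log2 ratio differed by -0.38 (two-sided exact permutation p = 0.1, the smallest that 3 against 3 libraries allow). The ratio of PSPH to PHGDH, chosen after its values were seen and not tested, was 0.667, 0.602 and 0.661 in the control libraries, against 0.470, 0.464 and 0.466 after TGF-β1. The TGF-β1 values of this ratio all lay below the control values, and their closeness to each other was not tested.

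MTHFD2 was higher relative to its cytosolic counterpart in every TGF-β1 library. MTHFD1 is the cytosolic folate enzyme that carries the MTHFD2 reactions, and it stood at 244.9, 237 and 230.3 CPM in control and 210.8, 214.6 and 223.3 CPM after TGF-β1 (log2 fold change -0.14, edgeR adjusted p = 0.0539). The FPKM ratio of MTHFD2 to MTHFD1 was 0.380, 0.423 and 0.415 in the control libraries, against 0.493, 0.501 and 0.520 after TGF-β1, a difference of 0.32 in log2 ratio (exact permutation p = 0.1). The ratio of SHMT2 to SHMT1 varied from 17.5 to 90.4 in control and from 44.0 to 207.1 after TGF-β1, with overlap (exact permutation p = 0.3). With Benjamini-Hochberg adjustment over the 4 ratios tested, the p-values were 0.133 for PSAT1 to PHGDH and MTHFD2 to MTHFD1, and 0.3 for SHMT2 to SHMT1. No ratio of ALDH1L2 to its cytosolic counterpart was formed, since ALDH1L1 had 0 counts in every library.

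**Figure D4:**
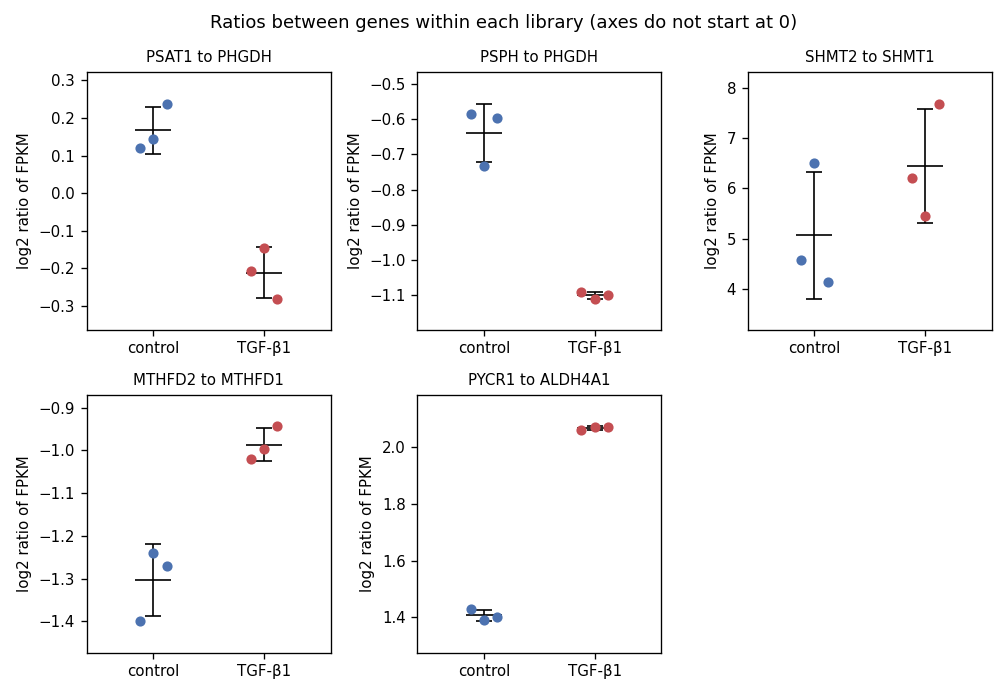
Each panel gives the log2 ratio of FPKM of a pair of genes in the 3 control and 3 TGF-β1 libraries, with lines at the mean and bars of 1 SD, on axes that do not start at 0. The groups separate for every pair except SHMT2 to SHMT1, and the PSPH to PHGDH and PYCR1 to ALDH4A1 panels were chosen after their values were seen.

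Among 13 other genes of proline and glutamate metabolism, 10 were tested, 3 were called higher and 2 lower, with a median log2 fold change of 0.10. Beside the counts of this list and those below stand the shares over all entries, 22.2% called higher and 22.1% lower. OAT and ARG2, which lead from arginine to the intermediate that PYCR1 reduces, were both called higher. OAT, the ornithine aminotransferase that makes the same intermediate from ornithine, stood at 189.1, 182.8 and 189.8 CPM in control and 223.8, 223.2 and 227.9 CPM after TGF-β1 (log2 fold change 0.26, edgeR adjusted p = 0.0011). ARG2, the mitochondrial arginase that supplies ornithine, rose by 0.40, and ODC1, which draws ornithine into polyamines, by 0.24 on the log2 scale. ALDH4A1, which oxidises the proline-derived intermediate back to glutamate, went from 43.4, 44.3 and 39.5 CPM to 36.4, 32.7 and 32.8 CPM (log2 fold change -0.32, edgeR adjusted p = 0.00369). The ODC1 call was lost with total counts only and without control replicate 3 (edgeR adjusted p = 0.0571). PYCR1 relative to ALDH4A1, a ratio chosen after its values were seen and not tested, was 2.63 to 2.70 in control and 4.17 to 4.20 after TGF-β1. PRODH, the proline dehydrogenase, named after its values were seen, had 0 counts in every library, and entries that overlap it were not looked up.

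Of 15 other folate and one-carbon genes, 13 were tested, 2 were called higher and 2 lower, with a median log2 fold change of 0.01. SLC25A32, the mitochondrial folate carrier, stood at 73.3, 74.6 and 71.0 CPM in control and 109, 112.1 and 112.8 CPM after TGF-β1. That rise (log2 fold change 0.61, edgeR adjusted p = 3.76e-06) was larger than that of any of the 9 genes. FPGS, which adds glutamate tails to folate, rose by 0.27. SLC46A1, the proton-coupled folate transporter, fell by 0.82. Among 15 genes that use glycine or serine, 11 were tested, with 1 called higher and 1 lower, and GATM, the first enzyme of creatine synthesis, rose by 0.33. The FPGS and GATM calls were lost with total counts only. Of 6 genes of purine synthesis, which takes up glycine and folate-bound carbon, PPAT, its first enzyme, rose by 0.39 and the other 5 were not called.

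At the glycolytic branch point, 1 of 5 genes was called higher and 1 lower. PGAM1, which moves 3-phosphoglycerate on down glycolysis, rose from 603.5 ± 23.9 to 747.6 ± 27.4 CPM (SD, n = 3, log2 fold change 0.31, edgeR adjusted p = 0.00106). PGK1, which makes 3-phosphoglycerate, went from 1105 ± 45.6 to 975 ± 7.54 CPM (log2 fold change -0.18, edgeR adjusted p = 0.0185), a call lost in 4 of the 6 fits without 1 library (control replicates 1 and 2, TGF-β1 replicates 2 and 3) and when all entries with a count were tested.

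Of 14 transporters of serine, glycine and proline, 12 were tested, 5 were called higher and 3 lower, with a median log2 fold change of -0.04. SLC38A2, a sodium-coupled carrier of small neutral amino acids that include proline, stood at 884.2, 848.3 and 877.8 CPM in control and 1045, 1182 and 1259 CPM after TGF-β1 (log2 fold change 0.42, edgeR adjusted p = 0.000672). SLC1A5, the exchanger for glutamine and serine, rose by 0.40, SLC6A9, the glycine transporter GlyT1, by 0.45, and SLC25A38, the mitochondrial glycine carrier, by 0.20. SLC1A4, an exchanger of serine and alanine, fell by 0.30 and SFXN3, of the mitochondrial serine carrier family, by 0.19. The largest change of this list was that of SLC6A20, which is under 5 CPM and was named after its values were seen. It went from 2.22, 2.21 and 1.83 CPM in control to 0.423, 0.331 and 0.525 CPM after TGF-β1 (log2 fold change -2.29, edgeR adjusted p = 2.01e-05). The SLC25A38 call was lost in DESeq2, with total counts only and without control replicate 1 or 3 or TGF-β1 replicate 2 or 3, and the SLC1A4 and SFXN3 calls without control replicate 2.

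PHGDH, PSAT1, PSPH, SHMT2, MTHFD2, ALDH1L2, ALDH18A1 and PYCR1 are known targets of ATF4, the transcription factor of the amino acid response. Beside them, 35 genes of the ATF4 pathway were listed and 32 tested, of which 11 were called higher and 5 lower, with a median log2 fold change of 0.07, while 22.2% of all entries were called higher and 22.1% lower. ATF4 itself, named as the head of this list, stood at 299.8, 311.8 and 277.4 CPM in control and 329.2, 301 and 294.7 CPM after TGF-β1, with overlap (log2 fold change 0.06, edgeR adjusted p = 0.498). Among listed genes of at least 5 CPM, the rises were led by SLC7A5, the large neutral amino acid transporter (0.80), CEBPB (0.67), and the transfer RNA synthetases WARS1 (0.47) and TARS1 (0.39). The falls were led by GDF15, a stress-induced cytokine, which went from 64.4, 66.3 and 56.7 CPM to 12.5, 9.60 and 9.45 CPM (log2 fold change -2.56, edgeR adjusted p = 4.9e-08). ATF3 (-0.91), STC2 (-0.56) and DDIT4 (-0.53) were also lower. ASNS, the asparagine synthetase, a defining ATF4 target named after its values were seen, stayed between 0.191 and 0.331 CPM and was not tested. Entries that overlap ASNS were not looked up, so its low count is not shown to be an absence of its RNA.

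Over all 116 genes of these pathway lists, 102 were tested, 31 were called higher and 16 lower. That is 47 of 102, where 44.3% of all entries were called. The 47 called genes kept their direction in each other setting in which they were tested and in each fit without 1 library, but only 28 of them were called in all of these, and 12 of the rises were not called with total counts only.

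The coding sequences give the residues that the mRNA pool encodes. The share of glycine and proline codons was computed over the coding sequences of the mRNA pool, each gene weighted by its deposited TPM, and genes with a coding sequence held 94.1% to 94.6% of the TPM. Glycine and proline codons made up 12.78%, 12.79% and 12.71% of all codons in control and 13.05%, 12.97% and 12.95% after TGF-β1. Every TGF-β1 library was higher, by 0.229 percentage points in the mean (two-sided exact permutation p = 0.1, the smallest possible). Glycine codons went from 6.93% ± 0.026 to 7.08% ± 0.045 and proline codons from 5.83% ± 0.014 to 5.91% ± 0.010 (SD, n = 3).

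Collagen chains held 2.01% ± 0.040 of all glycine codons in control and 3.54% ± 0.096 after TGF-β1, and 1.61% ± 0.035 and 2.83% ± 0.082 of all proline codons. COL1A1 alone has 26.7% glycine and 19.0% proline among its 1464 codons. Without the collagen chains the share was 12.6% ± 0.037 in control and 12.7% ± 0.042 after TGF-β1, a difference of 0.0982 percentage points. Of 44 collagen genes, 25 were tested, with 14 called higher and 7 lower. Among the rises, named after their values were seen, were COL4A1 (1.92), COL5A1 (1.41) and COL4A2 (1.07 on the log2 scale). Among the falls, named in the same way, were COL9A2 (-1.32), COL8A1 (-1.25) and COL12A1 (-0.97). Of the 13 collagen prolyl and lysyl hydroxylases and their partners, 7 were called higher and 2 lower, with a median log2 fold change of 0.28. P3H1, a prolyl 3-hydroxylase, rose by 0.59, P3H4, a partner protein of these hydroxylases, by 0.35, P4HA1, a catalytic subunit of prolyl 4-hydroxylase, by 0.32 and PLOD1, a lysyl hydroxylase, by 0.32, whereas P4HA2 fell by 0.21 and CRTAP by 0.20. The CRTAP call was lost without control replicate 1 or 2 or TGF-β1 replicate 3, and the PLOD1 call with total counts only.

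**Figure D5:**
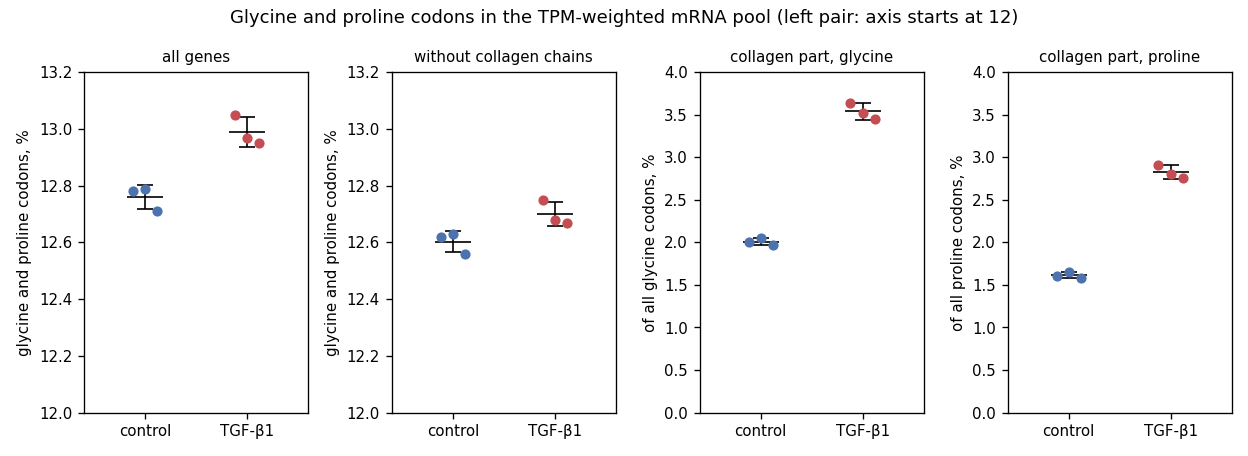
Points give, for each of the 3 control and 3 TGF-β1 libraries, the percent of TPM-weighted codons that encode glycine or proline over all genes and without collagen chains (left pair, axis from 12%), and the percent of all glycine and of all proline codons that lie in collagen chains (right pair, axis from 0). Lines and bars give the mean and 1 SD, and the TGF-β1 libraries lie above the control libraries in every panel.

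The genes whose profiles lay closest to those of the 3 members with the largest called changes were found over the 6 libraries among 10597 entries, by the Euclidean distance between log2 CPM values taken relative to the control mean. For PSPH these were CSF1, the macrophage growth factor (distance 0.0553), and MAP3K6, a kinase of the stress-activated pathway (0.0851). PUDP (0.0826), a pseudouridine phosphatase, and SOX13 (0.0840), a transcription factor, were nearest to PSAT1. For PYCR1 they were IMPDH1, an enzyme of guanine nucleotide synthesis (0.0261), and PEA15, a small adaptor protein (0.0300). CSF1 and MAP3K6 changed by -0.50 and -0.49, PUDP and SOX13 by -0.39 and -0.41, and IMPDH1 and PEA15 by 0.33 and 0.34 on the log2 scale. Changes close to those of the members follow from the choice by distance and are a description only.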

How the data were processed

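Libraries for 3 control and 3 TGF-β1 samples of HK2 cells were made from messenger RNA selected by its poly(A) tail and primed with random hexamers. Per the submitters' processing notes, CASAVA, featureCounts 2.0.1, DESeq2 1.16.1 and the hg38 build were used. The aligner, the annotation release and the strandedness are not given in the sources used here. The authors deposited per gene raw read counts, which the notes' counting tool makes per entry. The deposited TPM and FPKM values were recomputed from those counts and the deposited lengths, and equalled them within rounding. Each table held 42095 entries, of which 598 without a gene name, with 0.396% to 0.464% of the counts, were left out, and 7 records broken over lines were rejoined.

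Counts were tested with edgeR 4.0.16 (TMM, filterByExpr with a minimum count of 10, robust quasi-likelihood F test, Benjamini-Hochberg adjustment, threshold 0.05) in R 4.3.3, without covariates, on all 14860 named entries that passed. Values in the text are TMM-scaled CPM. The SE was derived from the log2 fold change and the F statistic. The 95% intervals were formed from this SE with a normal quantile, so with 3 libraries a group they may be too narrow. Ratios of FPKM and codon shares were compared by two-sided exact permutation tests over libraries (scipy 1.17.1). All scripts that test across genes were tested on simulated data. Same-numbered control and TGF-β1 libraries deviated together with correlations of 0.111, -0.0117 and 0.0762, and differently numbered ones with -0.149 to 0.0883. The numbers were not taken as pairs. A table of proteins was not used here, and glycine (GGN) and proline (CCN) codons of GENCODE v29 coding sequences replaced the residues that had been planned. Promoter windows came from RefSeq (GRCh38.p14).

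The members and lists were chosen with earlier results of these data known. Named genes were the 9 members, in each list the called genes averaging 5 CPM or more (up to 4 with the largest rise and 4 with the largest fall), the ratio partners, COL1A1 as a treatment check, and the 2 nearest profiles of the 3 called members with the largest change, with a pseudocount of 0.1 CPM. Alternatives were DESeq2 1.42.0, limma-voom (limma 3.58.1), other size factors, filters and entry choices, the replicate number as a block, and each library left out in turn. Some genes and a ratio that this rule selects are not reported here, and the counts over lists and the adjustments include them.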

Additional observations from a re-analysis of the deposited data

How the results depend on the processing

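PSAT1, PSPH and PYCR1 kept their direction and their call in all 9 other settings and all 6 fits without 1 library. With total counts only, the members called higher went from 3 to 1, all entries called higher from 3294 to 2134 (and those called lower from 3288 to 4590), and the list genes from 31 to 19 higher and from 16 to 27 lower, while SHMT2 (-0.034) and ALDH1L2 (-0.013) turned sign. That scaling shifted all entries by -0.11 in median log2 fold change. In the fits without 1 library, the members called higher ranged from 1 to 3, the list genes called lower from 10 (without control replicate 2) to 25 (without TGF-β1 replicate 1), and the log2 fold change of PHGDH from -0.092 to 0.035, with the sign turned when control replicate 2 or TGF-β1 replicate 3 was left out. The cause was not tested, beyond the fewer libraries. Weighting codons by raw counts gave a difference of 0.169 percentage points in the glycine and proline share in place of 0.229. The replicate block called 3 members higher and 2 lower, 3396 entries higher and 3394 lower, and changed no call of a member. Whether the replicate numbers pair the libraries is not known. SHMT1 rests on 31 to 394 counts per library, with a spread within groups beyond counting error, and depth limits what can be said of genes under 1 CPM. With 3 libraries a group, exact tests cannot go below p = 0.1.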
